A study of Mus musculus with 11 samples.

Results

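The IL-6 family is described here as 10 genes, 4 cytokines (Il6, Il11, Lif and Ctf1), 5 receptor chains (Il6st, Osmr, Lifr, Il6ra and Il11ra1) and the feedback inhibitor Socs3, out of 32868 gene symbols measured in primary neonatal lung fibroblasts of the mouse. The members were taken by symbol, with earlier results of these data known. The fibroblasts were sorted by flow cytometry and profiled as bulk RNA from PAD2KO pups, which lack peptidylarginine deiminase 2, the citrullinating enzyme encoded by Padi2, and from WT pups. Batch 2 held PAD2KO 6 and PAD2KO 7 against WT 5, WT 6 and WT 7, and batch 1 held PAD2KO 1, PAD2KO 2 and PAD2KO 3 against WT 1, WT 3 and WT 4. The series title speaks of basal and TNF-induced expression, but no treatment stands in the labels of the 11 libraries. What else differed between the batches is not stated in the labels. Strain, the knockout allele, exact age, the sorting gate and whether animals were pooled are likewise not stated, so p-values measure the spread between libraries, which may be technical.

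Cytokines of this family signal through receptor complexes that share the gp130 chain, the product of Il6st. IL-6 and IL-11 first bind a chain of their own, encoded by Il6ra and Il11ra1, that captures the ligand but does not itself signal, whereas LIF, cardiotrophin-1 and oncostatin M join gp130 to a second signalling chain, LIFR or OSMR. The complexes activate JAK kinases and STAT3, and STAT3 induces Socs3, whose product shuts the receptor down. Fibroblasts are a known source of IL-6, IL-11 and LIF, mostly after inflammatory stimuli that act through NF-kappa B and AP-1.

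The stretches before the start sites of the 3 cytokine genes that differed most between batches, and of the feedback gene Socs3, are printed. Other members, Lifr and Il6st among them, are not printed, and every printed stretch holds a motif match. Each is the 250 bases before the start in the RefSeq promoter table of GRCm38.p6, read on the gene's own strand, and motifs were searched on both strands in a window of 300 bases that runs on past the start. That build is not the one the submitters' processing notes name (GRCm39), and no count was placed by these coordinates. Capitals mark kappa B (GGNNTTTCC), AP-1 (TGANTCA) and STAT (TTCNNNGAA) matches.
Il6, chr5:30012864-30013113, plus strand: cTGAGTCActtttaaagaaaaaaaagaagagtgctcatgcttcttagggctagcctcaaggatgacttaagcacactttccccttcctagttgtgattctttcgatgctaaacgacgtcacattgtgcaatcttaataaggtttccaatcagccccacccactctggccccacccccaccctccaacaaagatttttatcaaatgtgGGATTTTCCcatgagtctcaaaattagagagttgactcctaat
Il11, chr7:4778142-4778391, minus strand: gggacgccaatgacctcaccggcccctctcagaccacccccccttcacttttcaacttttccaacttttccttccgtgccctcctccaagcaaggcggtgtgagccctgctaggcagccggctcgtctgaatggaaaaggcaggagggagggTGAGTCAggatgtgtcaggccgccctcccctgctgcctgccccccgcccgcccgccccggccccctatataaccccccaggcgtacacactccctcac
Lif, chr11:4257318-4257567, plus strand: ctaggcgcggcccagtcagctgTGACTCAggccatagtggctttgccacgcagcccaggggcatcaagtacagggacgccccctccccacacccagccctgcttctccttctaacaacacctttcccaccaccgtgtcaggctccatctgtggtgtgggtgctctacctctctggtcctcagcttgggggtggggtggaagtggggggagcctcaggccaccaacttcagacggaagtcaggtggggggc
Socs3, chr11:117969367-117969616, minus strand: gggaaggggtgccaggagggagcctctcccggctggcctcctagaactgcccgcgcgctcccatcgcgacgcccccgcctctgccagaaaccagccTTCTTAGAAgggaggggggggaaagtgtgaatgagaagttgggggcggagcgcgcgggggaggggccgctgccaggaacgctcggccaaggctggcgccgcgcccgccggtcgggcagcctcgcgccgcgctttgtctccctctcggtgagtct
The Il6 stretch held a kappa B match whose first base lies 43 bases before the start and an AP-1 match 249 bases before it. Il11 held an AP-1 match 98 bases before the start printed here and none of the motifs at its other listed start, and Lif held an AP-1 match 228 bases before its start. The capitals in Socs3 are a STAT match 154 bases before its listed start. Bases just past the listed start were found on the same strand in a transcript for Il6, Il11 and Lif. That check bears on the strand and not on the exact start. For Socs3 they were not, so its start and strand rest on the promoter table alone. Among 32544 mouse promoter windows of the same length, 5.83% held the kappa B motif, 7.79% the AP-1 motif and 8.33% the STAT motif. The looser C/EBP motif TTNNGNAA, left in lower case, occurred in 40.7% of windows and was found for Il6, 128 bases before the start, and at 2 places for Il6ra. Osmr held an AP-1 match just past its start, and the windows of Il11ra1, Ctf1, Il6st and Lifr held none of the motifs. A match is a run of letters and not evidence of binding.

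Libraries held 962633 to 1421243 counts of named genes, and the limit set by 0 counts (3 counts of a library's total) was 2.08 to 3.18 CPM, the counts scaled to library size. Fibroblast markers summed to 5864 to 16000 CPM in every library, with Col1a1, Col1a2, Col3a1 and Vim the most abundant, and their sum was 5864 to 7075 CPM in batch 2 against 11470 to 16000 CPM in batch 1. The 7 epithelial markers summed to 16.8 to 47.8 CPM per library, with Sftpc at 0, Epcam at a single count and most counts from the keratin genes Krt18 (314 over all libraries), Krt19 (98) and Krt8 (23). Padi2 itself was too low to check the labels, with 0 to 4 counts per library in PAD2KO and 0 to 2 in WT. In bulk RNA, fewer cells that express a gene and less of its RNA per cell cannot be told apart.

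Scaled per transcript length (TPM), Socs3 and the receptor chains other than Il6ra were far above the cytokines in batch 1. There Il6st led with 381 ± 3.66 TPM in PAD2KO and 426 ± 52.4 TPM in WT (SD, n = 3 each). Osmr and Socs3 followed with overlapping library values, at 207 ± 16.4 and 190 ± 18.8 TPM in PAD2KO and at 227 ± 55.2 and 188 ± 22.2 TPM in WT. Il11ra1 and Lifr came next, at 65.1 ± 12.5 and 39.6 ± 8.22 TPM in PAD2KO and 66.3 ± 6.08 and 37.7 ± 8.40 TPM in WT. Il6, Il11, Lif and Il6ra lay between 1.74 and 11.2 TPM in every batch 1 library of either genotype, and genes next to each other in the order of means overlapped.

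**Figure D1:**
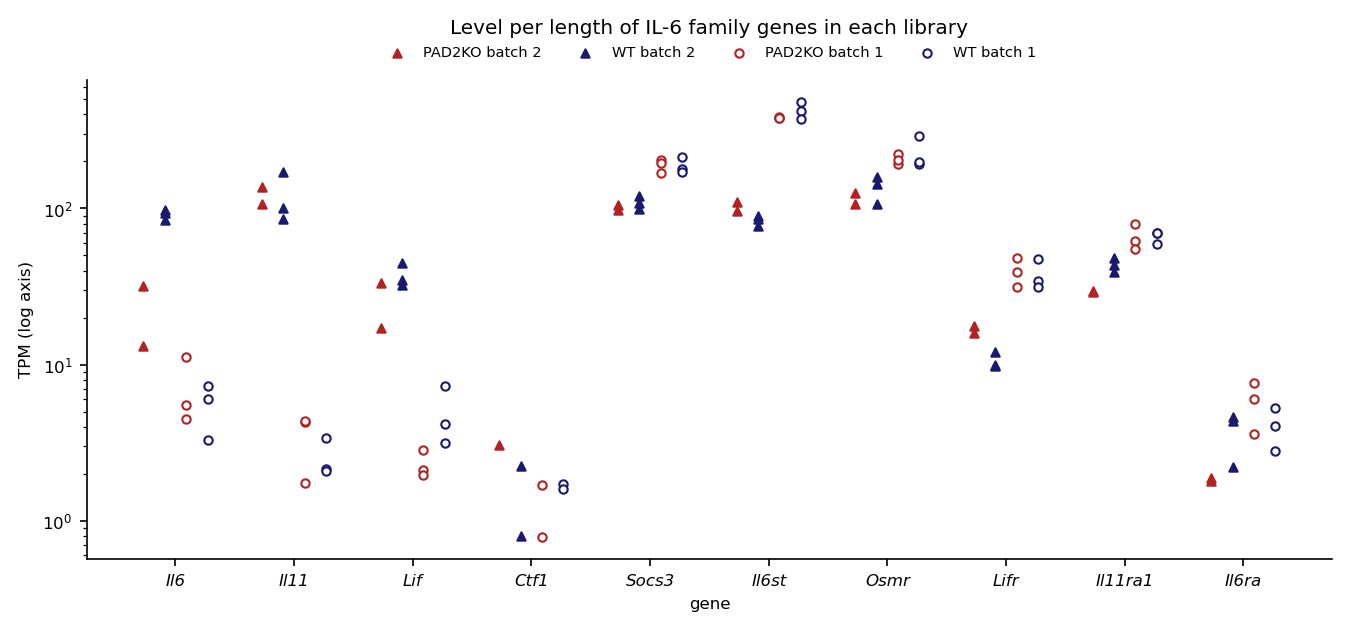
Level per transcript length (TPM, log axis) of the 10 IL-6 family genes, 1 symbol per library, with filled triangles for batch 2 and open circles for batch 1, and PAD2KO in red and WT in dark blue. Libraries listed at 0 (Ctf1) are not drawn; Il11 stands at 85.1 to 171 TPM in batch 2, level with Osmr at 107 to 158 TPM, against 1.74 to 4.35 TPM in batch 1.

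In batch 2 the order of levels was different. In PAD2KO libraries Il11, Osmr, Il6st and Socs3 averaged 122 ± 22.3, 116 ± 12.8, 104 ± 9.28 and 102 ± 5.14 TPM (SD, n = 2), with each neighbour overlapping the next. In WT libraries Osmr, Il11 and Socs3 averaged 136 ± 26.6, 119 ± 45.9 and 109 ± 10.1 TPM and overlapped, and Il6 and Il6st followed at 91.9 ± 6.91 and 84.0 ± 6.36 TPM (SD, n = 3), also overlapping. Il6 stood level with the gp130 gene in WT fibroblasts of batch 2, whereas in PAD2KO fibroblasts of that batch it averaged 22.5 ± 13.3 TPM and overlapped Lif and Lifr. The 4 cytokines together summed to 203 and 140 TPM in PAD2KO 6 and PAD2KO 7, and to 219, 305 and 224 TPM in WT 5, WT 6 and WT 7. The same sum was 10.1 to 18.3 TPM in PAD2KO and 8.53 to 19.7 TPM in WT libraries of batch 1.

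Il6, the cytokine that names the family, was the member that differed most between PAD2KO and WT fibroblasts in batch 2. It had 23 and 14 counts in PAD2KO 6 and PAD2KO 7, against 79, 96 and 59 counts in WT 5, WT 6 and WT 7. Scaled to library size these are 18.6 and 10.97 CPM in PAD2KO, and 57.5, 75.2 and 62.5 CPM in WT. Both PAD2KO libraries lay far below all 3 WT libraries. The level fell to 0.228 of the WT level, a log2 fold change of -2.13 (SE 0.28, 95% interval -2.72 to -1.55) with an adjusted p of 2.68e-05 in edgeR's quasi-likelihood test. Without PAD2KO 7, the lower of the pair, the log2 fold change was -1.80 with an adjusted p of 0.00798, and without PAD2KO 6 it was -2.56 with an adjusted p of 7.40e-05.

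Of the 9 members tested, Il6 was the only one called lower in PAD2KO in batch 2, at an adjusted p under 0.05, and Lifr the only one called higher. Among all 9932 genes tested in that comparison, 1.71% were called lower and 1.4% higher. The 9 members had a median log2 fold change of -0.11, beside -0.01 for all genes tested.

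Lifr encodes the signalling chain that LIF and cardiotrophin-1 use beside gp130. It stood at 127 and 136 CPM in PAD2KO 6 and PAD2KO 7, against 96.1, 80.7 and 60.4 CPM in WT 5, WT 6 and WT 7. The groups did not overlap, and the log2 fold change was 0.71 (SE 0.16), with an adjusted p of 0.0117 in edgeR's quasi-likelihood test. The uncalled members Il6st, Il6ra and Il11ra1 did not overlap in this comparison either. With 2 libraries against 3, lack of overlap alone says little for any gene. The share of all genes without overlap was not computed for any comparison. The call was lost without PAD2KO 7 (0.66, adjusted p of 0.200), without WT 7 (0.57, adjusted p of 0.0539) and when gene lengths per library entered the fit (0.63, adjusted p of 0.199).

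Il11 did not share the difference seen for Il6. It had 244 and 199 counts in PAD2KO 6 and PAD2KO 7, against 205, 327 and 113 counts in WT 5, WT 6 and WT 7, which is 198 and 156 CPM in PAD2KO and 149, 256 and 120 CPM in WT. The PAD2KO libraries fell inside the WT range. The log2 fold change was -0.00, and its 95% interval of -0.57 to 0.57 leaves out a change of the size seen for Il6. Each count of Il6 was matched by 10.6 and 14.2 counts of Il11 in the PAD2KO libraries of batch 2, against 2.60, 3.41 and 1.92 in the WT libraries.

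Lif gave an intermediate value with a wide spread. It had 129 and 48 counts (105 and 37.6 CPM) in PAD2KO 6 and PAD2KO 7, against 139, 139 and 131 counts (101, 109 and 139 CPM) in WT 5, WT 6 and WT 7. PAD2KO 6 fell inside the WT range and PAD2KO 7 far below it. The log2 fold change was -0.70 (SE 0.30) and did not pass, with an adjusted p of 0.294 in edgeR's quasi-likelihood test. Lif was called lower without PAD2KO 6 (-1.61, adjusted p of 3.07e-04) and with no filter on low counts (-0.67, adjusted p of 0.0215), and it lay at -0.14 without PAD2KO 7. Ctf1 was not tested, with 0 to 3 counts per library and 11 in all.

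The remaining receptor chains and Socs3 were not called between genotypes in batch 2. Il6st had 403 and 461 CPM in PAD2KO, against 384, 392 and 350 CPM in WT, with a log2 fold change of 0.20 (95% interval -0.03 to 0.43). Osmr averaged 400 ± 42.5 CPM in PAD2KO (SD, n = 2) and 412 ± 13.0 CPM in WT (SD, n = 3), and Socs3 averaged 201 ± 9.74 and 218 ± 20.3 CPM. The intervals of Osmr (-0.31 to 0.22) and Socs3 (-0.38 to 0.15) leave out a change of 0.5 on the log2 scale in either direction. With gene lengths in the fit Osmr was at -0.25 (SE 0.21), too uncertain to leave out such a fall. Il11ra1 had 38.9 and 36.1 CPM in PAD2KO, against 48.1, 44.7 and 67.8 CPM in WT, and its log2 fold change of -0.49 had an adjusted p of 0.270 in edgeR's quasi-likelihood test. Il6ra had 7 counts in each PAD2KO library and 9, 17 and 12 counts in the WT libraries, too few for a narrow interval (-1.92 to 0.07). The paralog Il11ra2, which is nearly identical to Il11ra1, was listed at 0 counts throughout, so the split of reads between the pair is uncertain.

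**Figure D2:**
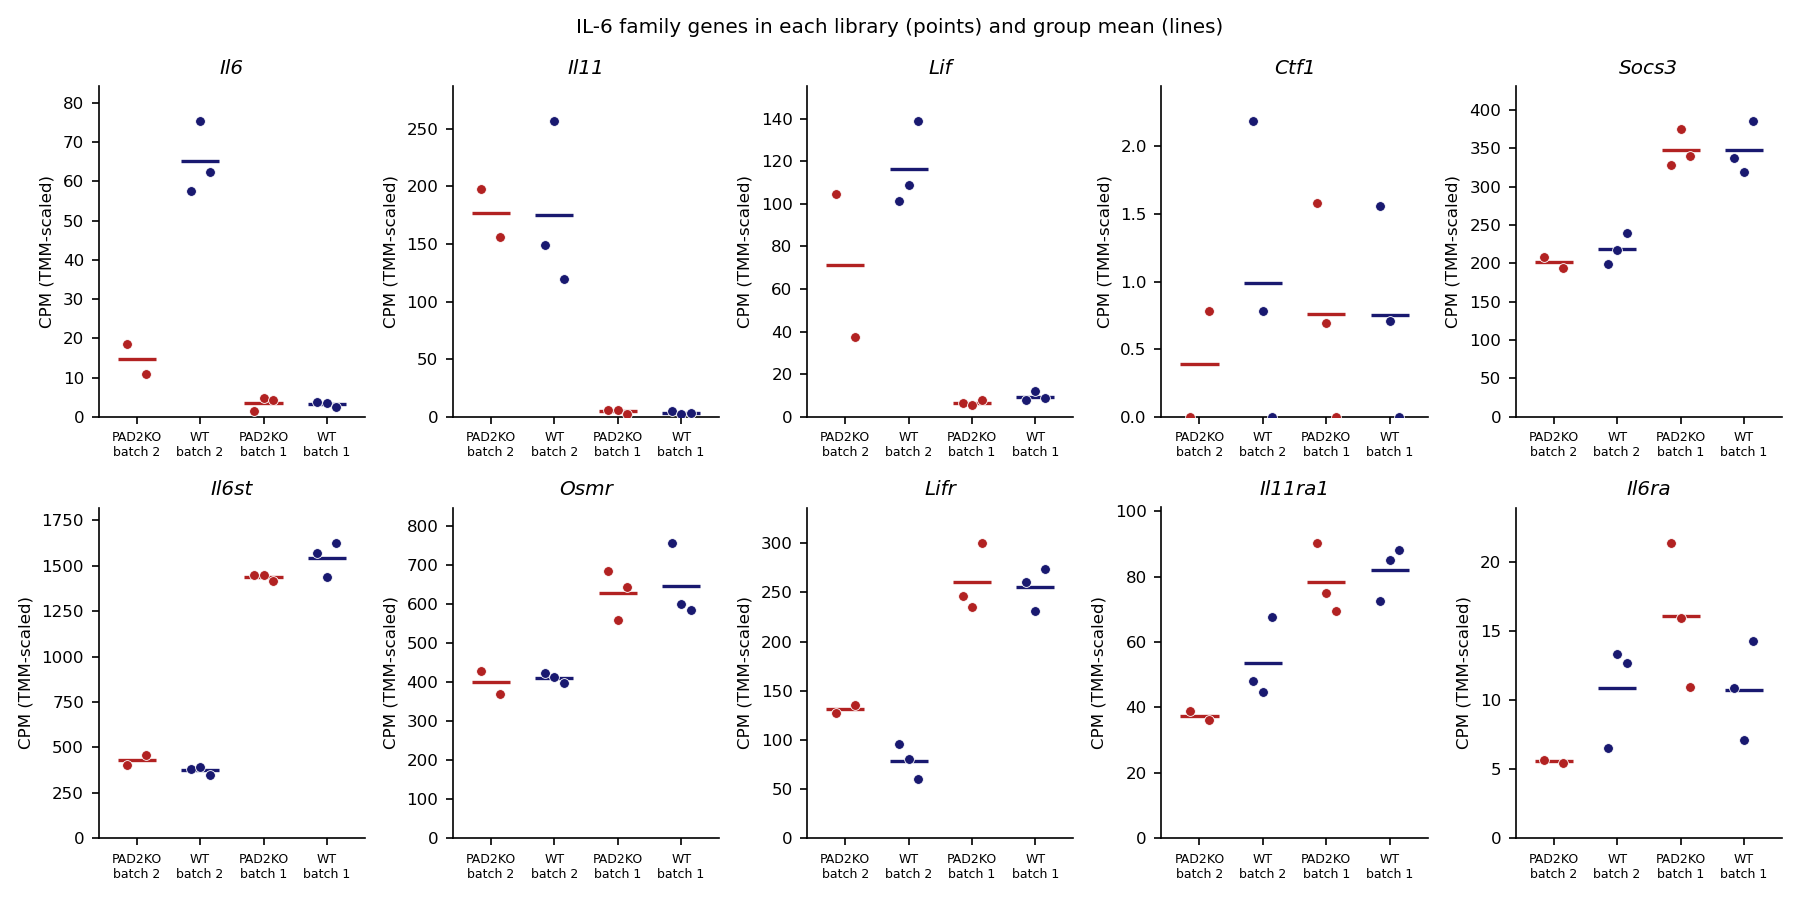
Library-size-scaled counts (CPM, linear axes from 0) of the 10 genes, with 1 point per library and a line at the group mean, PAD2KO in red and WT in dark blue, batch 2 left and batch 1 right. Il6 shows the PAD2KO libraries of batch 2 at 18.6 and 10.97 CPM below WT libraries at 57.5 to 75.2 CPM, while Il11 overlaps between genotypes.

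In batch 1, where the cytokines were low in both genotypes, no member was called. The count was 0 of 9 in edgeR's quasi-likelihood test, 0 at an unadjusted p under 0.05 and 0 with DESeq2, beside 0.0201% of all genes called higher and 0.111% called lower. Of all 9932 genes tested, 545 had an unadjusted p under 0.05 in this comparison. Il6 had 2, 7 and 6 counts in PAD2KO 1, PAD2KO 2 and PAD2KO 3, against 5, 5 and 3 counts in WT 1, WT 3 and WT 4. The groups overlapped, and the 95% interval of the log2 fold change (-0.91 to 1.23) is wide at these counts. Lifr averaged 261 ± 34.7 CPM in PAD2KO and 255 ± 22.1 CPM in WT (SD, n = 3 each), with an interval of -0.23 to 0.29. The intervals of Il6st (-0.30 to 0.09), Osmr (-0.27 to 0.19) and Socs3 (-0.22 to 0.22) were similarly narrow around 0.

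Whether the genotype difference itself differed between batches was tested by the interaction of genotype and batch. No member was called (0 of 9 in edgeR's quasi-likelihood test and 0 with DESeq2, with 4 at an unadjusted p under 0.05), beside 0.665% of all genes called higher and 0.957% called lower. Of all 9932 genes tested, 1151 had an unadjusted p under 0.05 for this interaction. Il6 came nearest, with a difference of -2.29 on the log2 scale (SE 0.62) and an adjusted p of 0.0531. That value sits at the threshold, and Il6 was called without PAD2KO 1 (adjusted p of 0.0259), without PAD2KO 6 (adjusted p of 0.0224) and with no filter on low counts (adjusted p of 0.0246). It was far from called with a replicate block (adjusted p of 0.328), without PAD2KO 7 (0.253), without PAD2KO 2 (0.226) and with gene lengths in the fit (0.192). Lifr followed at 0.68 (SE 0.21, adjusted p of 0.104 in edgeR's quasi-likelihood test), and it was called without WT 5 (adjusted p of 0.0417) and with no filter on low counts (adjusted p of 0.0216), while it had an adjusted p of 0.522 with gene lengths in the fit and 0.396 without PAD2KO 7.

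**Figure D3:**
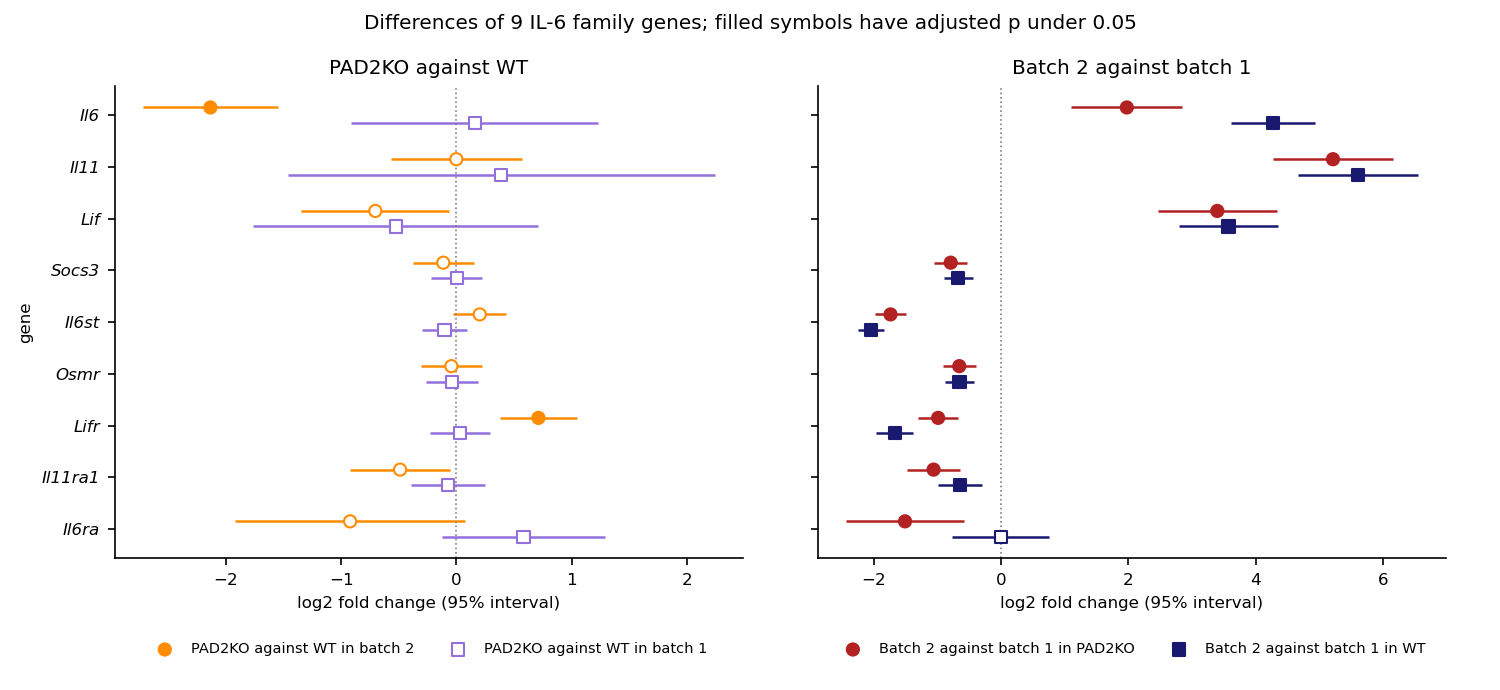
Log2 fold changes with 95% intervals of the 9 tested genes for PAD2KO against WT in each batch (left) and batch 2 against batch 1 in each genotype (right); filled symbols have an adjusted p under 0.05. Il6 (-2.13) and Lifr (0.71) are the filled genes for PAD2KO against WT in batch 2, and on the right the 3 tested cytokines lie to the right of 0 and the receptor chains, apart from Il6ra in WT, to the left.

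Between batches, Il6, Il11 and Lif were higher in batch 2 and Il6st, Osmr, Lifr, Il11ra1 and Socs3 lower, in both genotypes. Il6ra was called lower in PAD2KO and not in WT, and its difference between the genotypes was not called (adjusted p of 0.272 in edgeR's quasi-likelihood test). The libraries of Ctf1, which was not tested, overlapped. In PAD2KO fibroblasts all 9 tested members were called, 3 higher and 6 lower, beside 9.52% of all genes called higher and 9.13% called lower. In WT fibroblasts 8 were called, 3 higher and 5 lower, beside 11.7% of all genes called higher and 10.6% called lower. Il6 and Il11 passed the count filter through the 5 libraries of batch 2 alone, so their call in this comparison was partly set by the filter. The values are therefore given as a description for these 2 genes.

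Il11, a fibroblast cytokine studied for its part in fibrosis, had the largest difference. It had 244 and 199 counts in PAD2KO libraries of batch 2, against 8, 8 and 3 counts in those of batch 1, and 205, 327 and 113 counts in WT libraries of batch 2, against 6, 4 and 4 in those of batch 1. The log2 fold changes were 5.21 (SE 0.43) in PAD2KO and 5.60 (SE 0.43) in WT. No library of batch 2 overlapped any of batch 1.

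Il6 differed by 1.98 on the log2 scale (SE 0.42) in PAD2KO fibroblasts and by 4.27 (SE 0.32) in WT fibroblasts. In CPM it averaged 14.8 ± 5.41 in PAD2KO of batch 2 (SD, n = 2) against 3.61 ± 1.77 in PAD2KO of batch 1 (SD, n = 3). In WT it averaged 65.1 ± 9.13 CPM in batch 2 against 3.28 ± 0.79 CPM in batch 1 (SD, n = 3 each). Without PAD2KO 6 the PAD2KO batch difference was 1.55 on the log2 scale.

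Lif differed by 3.40 (SE 0.43) in PAD2KO and 3.57 (SE 0.36) in WT, with adjusted p of 8.69e-05 and 4.89e-06 in edgeR's quasi-likelihood test. It averaged 71.1 ± 47.3 CPM in PAD2KO of batch 2 (SD, n = 2), against 6.65 ± 1.28 CPM in PAD2KO of batch 1 (SD, n = 3). In WT it averaged 116 ± 19.8 CPM in batch 2 and 9.53 ± 2.25 CPM in batch 1 (SD, n = 3 each).

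Il6st, the shared gp130 chain, was lower in batch 2 and had the largest fall among the receptors. PAD2KO libraries had 403 and 461 CPM in batch 2, against 1451, 1449 and 1416 CPM in batch 1. WT libraries had 384, 392 and 350 CPM in batch 2, against 1572, 1438 and 1626 CPM in batch 1. The log2 fold changes were -1.73 (SE 0.12) in PAD2KO and -2.04 (SE 0.10) in WT, and every library of batch 2 lay below every library of batch 1. The adjusted p was 1.01e-11 in PAD2KO and 8.62e-15 in WT in edgeR's quasi-likelihood test.

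Lifr fell by 0.99 (SE 0.15) in PAD2KO and by 1.67 (SE 0.14) in WT on the log2 scale. Osmr, the oncostatin M chain, and the inhibitor Socs3 fell less, Osmr by 0.66 in PAD2KO and 0.65 in WT (SE 0.13 and 0.11) and Socs3 by 0.79 in PAD2KO and 0.67 in WT (SE 0.13 and 0.11). Socs3 is a gene that STAT3 induces, and it was lower in batch 2 beside the higher cytokine genes. It averaged 201 ± 9.74 CPM in PAD2KO of batch 2 (SD, n = 2) against 348 ± 24.9 CPM in PAD2KO of batch 1 (SD, n = 3), and 218 ± 20.3 CPM in WT of batch 2 against 347 ± 33.9 CPM in WT of batch 1 (SD, n = 3 each). No batch 2 library of Lifr, Osmr or Socs3 reached the lowest batch 1 library of its genotype.

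The ligand-binding chains were weaker cases. Il11ra1 fell by 1.06 in PAD2KO (SE 0.20) and by 0.64 in WT (SE 0.17), and the WT call was lost without WT 6 (-0.53, adjusted p of 0.0518 in edgeR's quasi-likelihood test) and with gene lengths in the fit (-0.50, adjusted p of 0.112). Il6ra had 7 counts in each PAD2KO library of batch 2, against 27, 23 and 15 counts in batch 1, a log2 fold change of -1.51 (SE 0.45, adjusted p of 0.0190). In WT it had 9, 17 and 12 counts in batch 2 against 14, 10 and 18 in batch 1, with overlapping libraries and a log2 fold change of -0.00. The PAD2KO call of Il6ra was lost with DESeq2 (adjusted p of 0.0634), with gene lengths in the fit (adjusted p of 0.0800) and without PAD2KO 1, PAD2KO 6 or PAD2KO 7 (adjusted p of 0.0814, 0.0992 and 0.119).

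Markers of some other cells differed between the groups of libraries. Endothelial markers summed to 7.84 to 20.1 CPM and lymphocyte markers to 0 to 4.17 CPM per library, and both overlapped between batches. The 8 macrophage and leukocyte markers, all with counts, summed to 118 and 75.3 CPM in PAD2KO 6 and PAD2KO 7, to 120, 125 and 314 CPM in WT 5, WT 6 and WT 7, and to 25.4 to 65.7 CPM in the 6 libraries of batch 1. Lyz2 and Cd14 gave most of it, Cd14 averaging 36.4 CPM in PAD2KO and 71.1 CPM in WT of batch 2, while the pan-leukocyte gene Ptprc had 0 to 4 counts in any library. Leaving out WT 7, the library with the highest sum, the Il6 difference between PAD2KO and WT in batch 2 was -2.16 (adjusted p of 6.91e-05 in edgeR's quasi-likelihood test). That fit cannot part Il6 from these markers. Cd14 had 73 to 108 counts in the WT libraries of batch 2, against 38 and 53 in PAD2KO. The 7 smooth muscle and pericyte markers, Acta2 foremost, summed to 3824 to 4766 CPM in PAD2KO and 1621 to 1911 CPM in WT of batch 2, and to 4819 to 7347 CPM in PAD2KO and 6354 to 6885 CPM in WT of batch 1. The 4 mesothelial markers, mostly Upk3b, Wt1 and Lrrn4, summed to 39.98 to 83.4 CPM in batch 2, against 84.7 to 336.5 CPM in batch 1, with no overlap between batches. The part of these markers, and of the lower fibroblast marker sum of batch 2, in the results above was not tested.

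Across all 9931 other genes tested, the 6 most like Il6 over the 11 libraries, by the smallest root mean square difference of log2 CPM centred on each gene's mean, were Kcnk10 (0.52), Slpi (0.53), Ccl7 (0.55), Usp18 (0.57), Odc1 (0.58) and Aass (0.59), where the spread of Il6 itself was 1.65. Lif came next, at rank 7 (0.59), while Il11 was at rank 510 (1.32). These genes were picked for their likeness to Il6 over the same libraries, so their values by genotype are a description and not a test. Slpi, a secreted protease inhibitor, had 42.1 and 21.9 CPM in PAD2KO, against 67.0, 95.6 and 126 CPM in WT, a log2 fold change of -1.57. Usp18, an interferon-induced protease that removes ISG15, had 25.9 and 21.9 CPM in PAD2KO against 92.5, 106 and 160 CPM in WT, a log2 fold change of -2.30. In both, the PAD2KO libraries lay below all WT libraries of the batch. Kcnk10, Ccl7, Odc1 and Aass were not called between genotypes in batch 2, with log2 fold changes of -0.70, -1.08, -0.54 and -0.76.

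The wider pathway was read through 7 lists of 57 tested genes. In batch 1, no list gene was called between PAD2KO and WT (0 of 57 in edgeR's quasi-likelihood test and 0 with DESeq2, with 2 at an unadjusted p under 0.05). An unadjusted p under 0.05 was found there for 545 of all 9932 genes tested. In batch 2, 3 of the 57 were called higher and 2 lower in PAD2KO, beside 1.4% and 1.71% of all genes tested, and DESeq2 called 4.

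Among 12 JAK, STAT and adaptor genes, 1 was called higher and 1 lower in PAD2KO in batch 2, and the median log2 fold change was -0.08. Jak2, a kinase bound to cytokine receptors, had 89.1 and 83.9 CPM in PAD2KO, against 24.0, 40.0 and 30.7 CPM in WT, a log2 fold change of 1.45 (SE 0.21, adjusted p of 5.56e-05 in edgeR's quasi-likelihood test). Its PAD2KO and WT libraries did not overlap in batch 2, and the call held under all 18 alternatives run. The difference of its genotype effect between batches was also called (1.40, adjusted p of 0.00536), though not with gene lengths in the fit or with a replicate block. Stat3, the main transmitter of gp130 signals, was not called between genotypes (-0.17) and was lower in batch 2, by 0.63 in PAD2KO and 0.50 in WT.

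Of 10 tested feedback and phosphatase genes, 1 was called higher in PAD2KO in batch 2 and none lower. This was Socs2, the feedback gene of growth hormone signalling, at 72.1 and 70.5 CPM in PAD2KO against 36.4, 50.9 and 37.1 CPM in WT. Its log2 fold change of 0.77 (adjusted p of 0.0258 in edgeR's quasi-likelihood test) was lost in 7 of 18 alternatives, including DESeq2 and leaving out either PAD2KO library of batch 2. Of 5 receptor shedding genes, none was called between genotypes in batch 2 in edgeR's quasi-likelihood test or with DESeq2, and 2 had an unadjusted p under 0.05. The same held for 1433 of all 9932 genes tested in that comparison, called or not. In batch 2 against batch 1, Timp3, an inhibitor of the sheddase ADAM17, was lower in both genotypes (-1.05 in PAD2KO and -1.13 in WT), and the sheddase gene Adam10 was lower in WT (-0.89). Rhbdf2, which encodes an inactive rhomboid that carries ADAM17 to the cell surface, was higher in WT (1.66, adjusted p of 0.00151 in edgeR's quasi-likelihood test).

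Of 15 tested STAT3 target genes, 1 was called higher and 1 lower in PAD2KO in batch 2, with a median log2 fold change of -0.35 beside -0.01 for all genes. Timp1, an inhibitor of matrix metalloproteases, had 431 and 370 CPM in PAD2KO against 538, 584 and 627 CPM in WT (-0.54, adjusted p of 0.00753 in edgeR's quasi-likelihood test). Fos, a subunit of AP-1, was higher by 0.44 (adjusted p of 0.0376). Neither was called without PAD2KO 7, and with gene lengths in the fit neither was called. The Timp1 call was lost in 2 of 18 alternatives. The Fos call was lost in 8 of 18, including the fit of its 2 groups alone and leaving out WT 5, WT 6 or WT 7. Hp, which encodes haptoglobin, had 23 and 5 counts in PAD2KO against 52, 58 and 71 counts in WT, and its log2 fold change of -2.20 had an adjusted p of 0.0587.

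Between batches, 4 of the 15 STAT3 targets were called higher and 1 lower in PAD2KO, and 7 higher and 2 lower in WT. Among all genes the shares were 9.52% higher and 9.13% lower in PAD2KO, and 11.7% higher and 10.6% lower in WT. The median log2 fold change was 0.15 in PAD2KO and 0.79 in WT. Timp1 was higher by 0.56 in PAD2KO and 1.302 in WT, and Hif1a, a subunit of the hypoxia-inducible factor, by 0.36 and 0.90, while Fos was lower by 0.80 in WT. The Hif1a call in PAD2KO was lost in 7 of 17 alternatives.

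Of 13 regulators of Il6 transcription and mRNA decay, none was called between genotypes in batch 2 in edgeR's quasi-likelihood test or with DESeq2, and 5 had an unadjusted p under 0.05. Among all 9932 genes tested there, 1433 had an unadjusted p under 0.05. Between batches, 5 were called higher and 2 lower in PAD2KO, and 4 higher and 3 lower in WT, beside the same shares of all genes (9.52% and 9.13% in PAD2KO, 11.7% and 10.6% in WT). Nfkbia, the NF-kappa B inhibitor that NF-kappa B itself induces, was higher by 1.00 in PAD2KO and 1.85 in WT, and Nfkbiz, a nuclear co-regulator of Il6, by 0.94 and 1.59. Zc3h12a, the ribonuclease that degrades Il6 mRNA, was higher by 1.51 and 1.97. The count in PAD2KO dropped to as few as 1 higher when a library was left out, and the Nfkbia and Zc3h12a calls there were lost without PAD2KO 6.

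Of 8 other cytokine genes of the family, 2 passed the filter. Clcf1, which encodes a ligand of the CNTF receptor, had 42.1 and 32.1 CPM in PAD2KO, against 53.2, 52.5 and 60.4 CPM in WT of batch 2, and was not called between genotypes (-0.57, adjusted p of 0.210 in edgeR's quasi-likelihood test). It was higher in batch 2 by 1.02 in PAD2KO and 1.63 in WT, the PAD2KO call being lost without PAD2KO 6. Osm, the ligand of OSMR, had 1 count in all libraries together, and the 4 other receptor genes (Cntfr, Il27ra, Il31ra and Il11ra2) had 0 to 8 counts per library and were not tested.

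**Figure D4:**
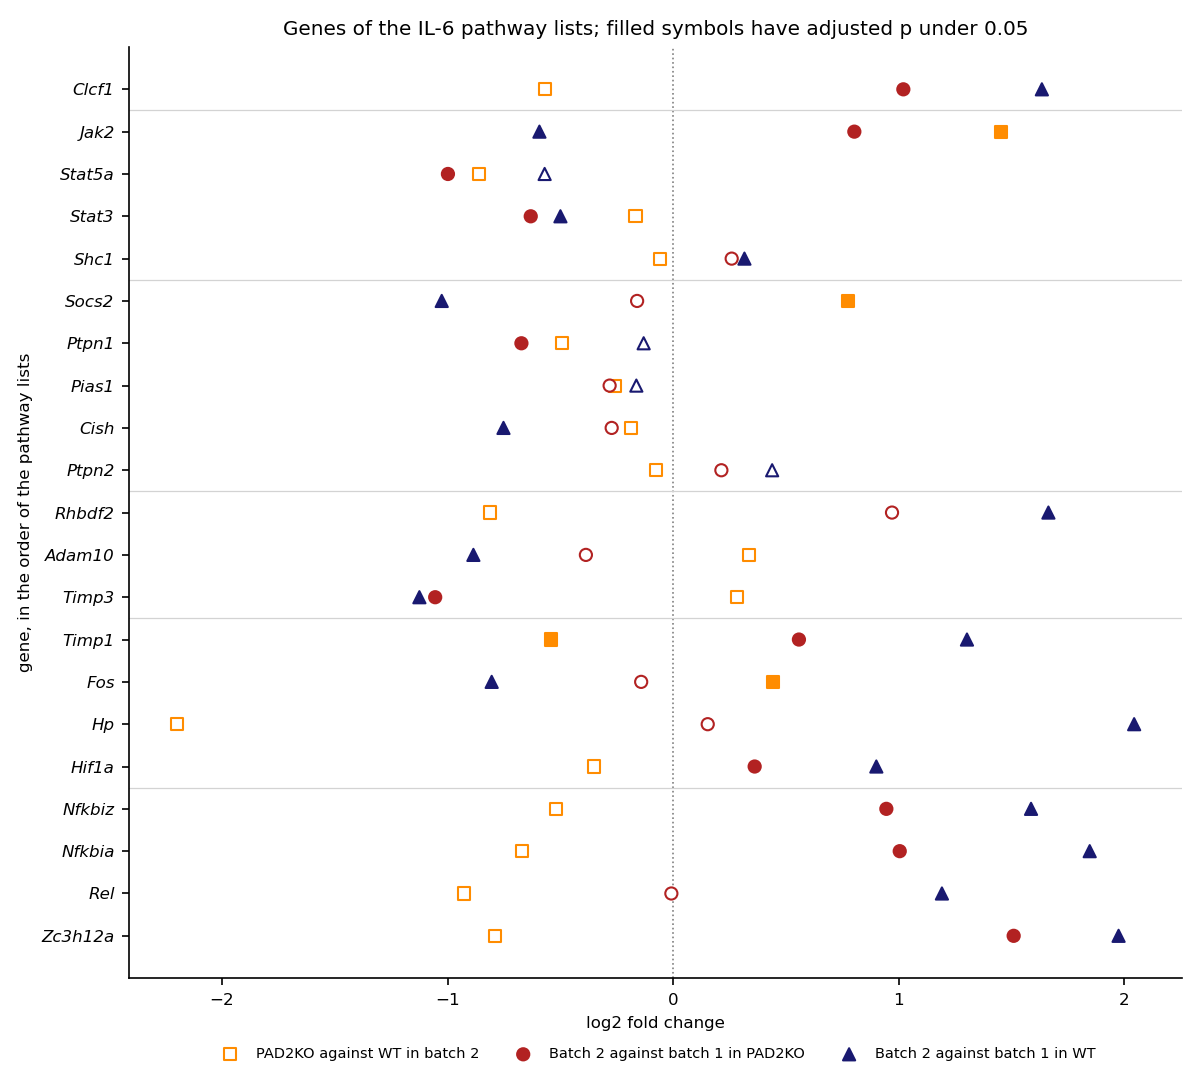
Log2 fold changes of the genes of the pathway lists that are described here, with squares for PAD2KO against WT in batch 2, circles for batch 2 against batch 1 in PAD2KO and triangles for the same in WT; filled symbols have an adjusted p under 0.05. Jak2 (1.45) has the highest filled square.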

How the data were processed

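The authors deposited a table of estimated counts, TPM and transcript lengths per gene and library; the submitters' processing notes name fastp, Salmon 1.3.2, DESeq2 1.46.0 and GRCm39, with no annotation named. The kit, per the labels, amplifies cDNA and adds no molecular identifiers named there, so the limit set by 0 counts covers counting error only; intervals of fold changes come from the fit and include the spread between libraries. The deposited estimated counts were summed by symbol and rounded; the deposited TPM values serve only for levels between genes, and the lengths only as an alternative. Entries without a symbol (3.8% to 6.4% of counts) were left out.

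All 11 libraries entered a single edgeR 4.0.16 fit in R 4.3.3, with a mean per genotype and batch, TMM scaling, filterByExpr on genotype (9932 genes kept, 7.73 CPM in 5 libraries) and Benjamini-Hochberg adjustment over all genes at 0.05. CPM are TMM-scaled. SE is the log2 fold change divided by the root of the test statistic. DESeq2 1.42.0, other scaling, filters and fits, and leaving out each library were alternatives, and the fit was tested on simulated data. Named are all members, Padi2, the 3 list genes with the smallest p in PAD2KO against WT in batch 2 and in batch 2 against batch 1 in WT, and the 6 genes most like Il6; genes outside this rule are said to be so. The results of 2 list genes are not reported here, though list counts include them. The members and lists were chosen with earlier results of these data known. WT 5 and WT 6 were the most alike pair (chi-square per degree of freedom 1.47, others 2.16 to 3.37) and were kept as 2 libraries.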

Additional observations from a re-analysis of the deposited data

Results flagged for a closer look

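Il6st and Il6ra were noted because both PAD2KO libraries of batch 2 lay on one side of the WT mean of their batch and all 3 PAD2KO libraries of batch 1 on the other. For Il6st the PAD2KO libraries were above WT in batch 2 and below it in batch 1, and the genotype difference in batch 2 minus that in batch 1 was 0.306 on the log2 scale (SE 0.15). For Il6ra they were below WT in batch 2 and above it in batch 1, a difference of -1.505 (SE 0.60) from 7 to 27 counts per PAD2KO library. The interaction itself was tested and did not pass for either gene, with adjusted p of 0.424 and 0.272 in edgeR's quasi-likelihood test.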

How the results depend on the processing

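Of 325 alternative values of the 19 called member results, 314 kept their call, 11 fell past the threshold and 0 changed sign. These include the batch differences of Il6 and Il11, whose calls were partly set by the filter. The fits with a library left out in this tally kept the same tested genes. Il6 in PAD2KO against WT in batch 2 was called in all of its alternatives, its highest adjusted p being 0.0277 with gene lengths in the fit. The members called in that comparison numbered 2, against 1 with gene lengths in the fit and 1 to 3 with a library left out; for the difference between batches they numbered 0, against 2 with no filter on low counts and 0 to 1 with a library left out. Same-numbered libraries were hardly correlated in their deviations from the group mean (0.0487, 0.0104, 0.0297 and 0.00152), which cannot settle whether the numbers pair them. With 2 PAD2KO libraries in batch 2, the values there mirror each other. The replicate block was fitted on same-numbered libraries alone, without PAD2KO 2, WT 4 and WT 5. With a replicate block Il6 in batch 2 was at -2.21 and Lifr at 0.90, both called, and 0 members were called for the difference between batches, where the Jak2 call was also lost. When the tested genes were chosen anew without WT 5, WT 6 or WT 7, an alternative added after seeing the data, Il6 and Il11 dropped out of the filter, and 1, 1 and 0 members were called in PAD2KO against WT in batch 2.

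Among the members, signs turned only for uncalled values. In PAD2KO against WT in batch 1 the replicate block gave -0.28 for Il6 and 0.0163 for Il11ra1, and Socs3 was at -0.00187 with DESeq2 size factors and -0.00157 with DESeq2. Il11 in PAD2KO against WT in batch 2 was at 0.00530 with DESeq2 size factors, 0.0143 with DESeq2, 0.0312 with no filter, 0.00434 with a filter on the 4 groups, 0.0121 with gene lengths and 0.00523 with its 2 groups fitted alone. Il6ra between batches in WT was at 0.00133 with DESeq2. For the difference between batches, Lif was at 0.34 with gene lengths, and Osmr at 0.00747 with DESeq2 size factors, 0.00731 with DESeq2, 0.0242 with no filter, 0.000703 with a filter on the 4 groups and 0.00176 with the replicate block. With a library left out, values in batch 1 ran from -0.11 to 0.48 for Il6, from -0.18 to 0.00756 for Il11ra1, from -0.11 to 0.0873 for Osmr, from -0.0834 to 0.10 for Lifr and from -0.057 to 0.0824 for Socs3. In batch 2 they ran from -0.19 to 0.38 for Il11 and from -0.16 to 0.0613 for Osmr. Il6ra between batches in WT ran from -0.24 to 0.29, and for the difference between batches Lif ran from -1.09 to 0.38 and Osmr ran from -0.13 to 0.10. The cause of these changes was not tested. At 2 to 17 counts per library, the cytokines of batch 1 allow only wide intervals.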

Other observations

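Lcn2, which encodes lipocalin 2 and is listed here among the STAT3 targets, was not tested because it reached the filter level in too few libraries; it is named after its values were seen. It had 46 and 2 counts in PAD2KO 6 and PAD2KO 7, against 151, 201 and 310 counts in WT 5, WT 6 and WT 7. In batch 1 it had 1, 0 and 0 counts in PAD2KO 1, PAD2KO 2 and PAD2KO 3, and 1, 8 and 1 counts in WT 1, WT 3 and WT 4. With the filter on the 4 groups, which Lcn2 passes through libraries where it is high, the log2 fold change of PAD2KO against WT in batch 2 was -3.33 and that of batch 2 against batch 1 in WT was 6.21, given as a description with no test.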
